A study of Mus musculus with 2 samples.

Results

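Open chromatin at the forkhead transcription factor (Fox) genes was examined in the growing ends of the embryonic mouse femur. The members were the 41 protein-coding autosomal genes of the GENCODE mouse annotation (release 21, mm10) whose symbol is Fox, a letter from a to s and a number, with or without a further letter, of 20807 autosomal protein-coding genes in all. A further 3 Fox genes on chromosome X (Foxo4, Foxp3 and Foxr2) were left out. ATAC-seq, in which a transposase cuts accessible DNA and tags it for sequencing, was performed on the proximal and on the distal cartilaginous end of E15.5 femurs from FVB embryos (strain label FVBNJ), without any treatment or engineered allele. Each end was pooled from a single litter, 8 animals on average, and 50000 cells went into a library. The libraries of 2 biological replicates were combined by the authors in 1 peak list per end, which keeps the peaks reproducible at an irreproducible discovery rate (IDR) under 0.05 and holds their positions alone. The proximal list has 28257 peaks and the distal list 27958.

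The lists carry no peak height and no replicate values, and read depth is not part of them. The reads of single replicates were not analysed here. No test of a difference between the ends was therefore run, and a peak found in 1 list only may lie in a region whose signal in the other end passed just under the threshold. The labels give the cells as chondrocytes, while the dissected tissue also holds perichondrium. A peak at the promoter was present in the proximal and distal list for 8 and 9 of 10 chondrocyte markers (among them Col2a1, Acan and Sox9), for 2 and 2 of 6 skeletal muscle markers (Actn2 and Mylpf), for 1 and 2 of 6 endothelial markers, for 1 and 1 of 6 blood markers, for 1 and 2 of 6 epithelial markers and for 1 and 0 of 6 osteoblast markers. The part of other cells in the peaks at Fox genes was not tested.

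Forkhead proteins bind DNA through a winged helix domain, and several of them, the Foxa proteins first among them, can bind their site in closed chromatin and open it. The core of the site is written GTAAACA or, in a variant, GCAAACA. In the skeleton, Foxa2 and Foxa3 are known as drivers of the hypertrophic chondrocyte programme, Foxc1 and Foxc2 as factors of the axial skeleton and the skull, the Foxp proteins as repressors in chondrocytes and osteoblasts, and the Foxo proteins as mediators of insulin-like growth factor signalling and stress responses. An accessible promoter is not a measure of expression, and a peak near a gene was counted by position, without evidence that it acts on that gene.

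At 3 start sites of Fox genes a peak of one list overlapped no peak of the other, and such peaks are here called single-end peaks. The part of each that lies in no annotated exon is shown from the C57BL/6J reference (plus strand, mm10, at most 200 bases), with every CG pair in capitals.
Foxf1, distal list, chr8:121083717-121083916: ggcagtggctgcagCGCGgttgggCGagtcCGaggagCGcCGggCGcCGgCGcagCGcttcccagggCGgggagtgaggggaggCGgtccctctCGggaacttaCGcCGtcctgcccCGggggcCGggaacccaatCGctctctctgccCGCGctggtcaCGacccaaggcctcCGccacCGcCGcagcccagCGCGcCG
Foxk1, proximal list, chr5:142401175-142401374: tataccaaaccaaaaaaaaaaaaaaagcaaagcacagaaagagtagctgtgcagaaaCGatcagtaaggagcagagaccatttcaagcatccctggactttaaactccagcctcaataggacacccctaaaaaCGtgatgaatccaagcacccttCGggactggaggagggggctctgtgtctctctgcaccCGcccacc
Foxp1 internal start, proximal list, chr6:99028314-99028503: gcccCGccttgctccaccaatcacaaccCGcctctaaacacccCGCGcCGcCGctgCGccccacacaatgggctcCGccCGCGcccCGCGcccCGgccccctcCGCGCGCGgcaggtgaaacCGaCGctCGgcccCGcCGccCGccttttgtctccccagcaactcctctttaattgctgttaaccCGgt
The Foxf1 stretch holds 27 CG pairs in 200 bases and the Foxp1 stretch 24 in 190, and the stretch upstream of Foxk1 4 in 200. The Foxk1 stretch leaves out the exon part of the peak, and its content is not that of the start site as a whole, which has 65.2% G and C and a ratio of observed to expected CpG of 0.998 in the surrounding 1 kb.

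A peak with its nearest edge within 1 kb of any annotated start of a gene was called a promoter peak. Among the 41 Fox genes, 22 had a promoter peak in both lists (53.7%, 95% Wilson interval 38.7% to 67.9%), against 55.0% of all autosomal protein-coding genes. Such intervals cover counting error only, and neighbouring genes that share peaks are not independent. A promoter peak was present in the proximal list only for 1 gene, Foxk1, where the share over all genes was 1.37%, and in the distal list only for 1 gene, Foxf1, where it was 2.77%. In all, 24 Fox genes (58.5%) had a promoter peak in either list, against 59.1%. A further 12 genes (29.3%) had no promoter peak but at least 1 other peak inside the gene or within 50 kb, against 27.2%, and 5 genes (12.2%) had no peak at all in that window, against 13.6%. Counted over all members, 34 (82.9%) had a peak other than a promoter peak, against 82.1%. Each of these shares was close to that over all genes, and the Wilson interval of each included it. The bar plot of peaks per gene shows the members one by one.

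**Figure D1:**
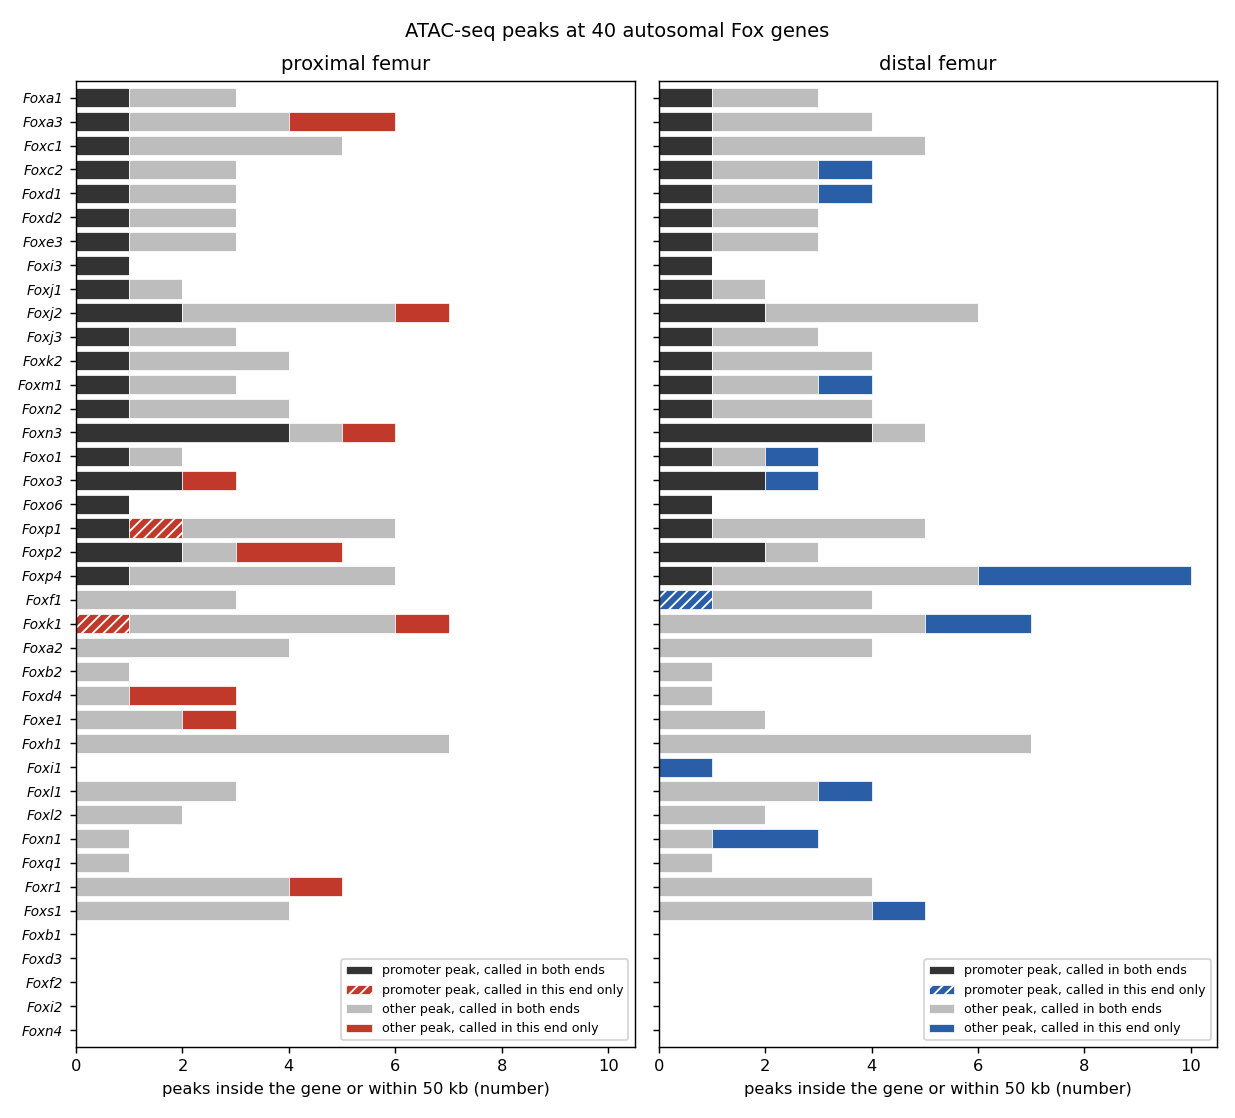
Number of ATAC-seq peaks inside each of 40 Fox genes or within 50 kb, in the proximal (left) and distal (right) femur list. Dark bars are promoter peaks called in both ends, grey bars other peaks called in both ends, and coloured bars (hatched for promoter peaks) are peaks called in that end only. Foxp4 has the longest bar, 10 peaks in the distal list against 6 in the proximal list, and the 5 genes at the bottom have none.

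The members listed as widely expressed, with roles in growth, the cell cycle and metabolism, had a promoter peak throughout. Their expression was not measured here. Of these 10 genes, 9 had it in both lists and 1, Foxk1, in the proximal list. Since 9 of the 10 were rich in CpG by the rule given below, and 89.9% of all such genes had a promoter peak in either list, the count is near that background. They comprise Foxo1, Foxo3 and Foxo6 of the insulin pathway, Foxm1, which drives mitotic genes, Foxk1 and Foxk2, repressors known for their part in glucose use and autophagy, Foxn2 and Foxn3, and Foxj2 and Foxj3. At Foxm1 (chr6:128362967-128376146) the promoter peak of 1051 bp (proximal) and 891 bp (distal) also lay within 1 kb of the start of Rhno1, and at Foxj3 the peak of 1260 and 1159 bp also lay at the start of Frg2f1. The peak at these genes can be assigned to either start. Foxo6 had a single peak in each list, of 673 and 696 bp, 290 and 284 bp upstream of its start.

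Foxn3, known for a role at cell cycle checkpoints, had 4 promoter peaks in each list, the most of any member, in a gene of 373505 bp with 14 annotated starts. Foxo3 had 2 in each list, 1 over the start (785 and 802 bp) and 1 upstream of it (984 and 946 bp). Foxj2 also had 2 in each list. The promoter peak of Foxn2, of 1927 bp in the proximal and 1654 bp in the distal list, was the widest single promoter peak at a Fox gene.

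The members listed under skeleton, limb or mesenchyme were divided. Of 14 genes, 7 had a promoter peak in both lists (Foxa3, Foxc1, Foxc2, Foxd1, Foxp1, Foxp2 and Foxp4), 1 in the distal list (Foxf1), 5 had other peaks only (Foxa2, Foxl1, Foxl2, Foxq1 and Foxs1) and 1, Foxf2, had no peak. Over all genes, 55.0% had a promoter peak in both lists, 27.2% had other peaks only and 13.6% had none. This role list is broad, and Foxq1, Foxl2 and Foxs1, which are best known from the hair shaft, the ovary and vessel-associated cells, are among the 5 with other peaks only. Foxc1 (chr13:31806633-31812476) had 5 peaks in each list, all shared. Its promoter peak covered 1190 and 945 bp, and the other 4 lay 41615, 40535 and 4968 bp upstream and 13941 bp downstream of the start in the proximal list, each more than 3 kb from any annotated start. Foxd1, known from the kidney stroma, had a promoter peak of 724 and 774 bp.

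Foxa2 and Foxa3, the pair known from hypertrophic cartilage, differed in where their peaks lay. Foxa2 (chr2:148042877-148046969, minus strand) had no promoter peak, and its 4 peaks, all upstream and all shared, began 1528, 21213, 31317 and 35368 bp from its nearest start in the proximal list and 1531, 21235, 31467 and 35328 bp in the distal list. The first of these lay just outside the limit of 1 kb. Foxa3 (chr7:19013284-19023538) had a promoter peak of 1370 and 1328 bp, which it shared with the divergent start of Sympk, a ubiquitous RNA processing gene, so that the peak does not by itself point to Foxa3. Around Foxa3, 3 of the other 5 proximal peaks lay within 1 kb of the starts of Mypop or Irf2bp1.

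There were 17 members known mainly from lineages outside the skeleton. Of these, 6 had a promoter peak in both lists, 7 had other peaks only and 4 had none. The shares over all genes were 55.0%, 27.2% and 13.6%. Members of this group with a promoter peak included Foxa1 (endoderm), Foxd2, Foxe3 (lens), Foxi3 (ectodermal appendages) and Foxj1 (motile cilia). Foxi3 had a single peak, which covered 1206 bp in the proximal and 636 bp in the distal list. Foxh1, a partner of nodal signalling in the early embryo, had no promoter peak of its own. It had 7 peaks in each list, all shared, of which 6 lay at the start of another coding gene (Vps28, Tonsl, Cyhr1 and its neighbour Kifc2, Ppp1r16a, and Lrrc14 with Recql4), and the nearest of them, at Ppp1r16a, began 1441 and 1378 bp from the Foxh1 start.

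The other genes of this group with peaks but no promoter peak were Foxb2, Foxd4, Foxe1 (thyroid), Foxi1 (inner ear and kidney), Foxn1 (thymus and hair) and Foxr1. Foxi1 had 1 peak in all, of 459 bp in the distal list, 34639 bp from its start. At Foxn1 all 3 distal peaks lay at the starts of Aldoc, Pigs and Unc119. Foxb2 had 1 shared peak, 24459 and 24539 bp upstream.

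The 5 genes without a peak in the window were Foxb1 (hypothalamus), Foxd3 (neural crest), Foxf2 (pericytes and palate mesenchyme), Foxi2 and Foxn4 (retina and spinal cord). The nearest proximal peak lay 56527 bp from Foxd3, 64965 bp from Foxf2, 77942 bp from Foxn4, 95455 bp from Foxi2 and 228249 bp from Foxb1. The nearest distal peaks lay at almost the same distances, between 56451 bp for Foxd3 and 228113 bp for Foxb1. Absence from the lists says that no peak passed the threshold, not that the chromatin was closed.

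Forkhead genes often have CpG-rich start sites, so their promoters were also described by sequence. A 5′ end was called CpG-rich where the 1 kb around it had at least 50% G and C and a ratio of observed to expected CpG of at least 0.6. By this rule 29 of 41 Fox genes (70.7%) were CpG-rich, against 45.7% of all genes, and the median ratio was 0.769 for the Fox genes and 0.569 for all. Of the 29 CpG-rich Fox genes, 20 had a promoter peak in either list (69.0%, 50.8% to 82.7%), where the share over all CpG-rich genes was 89.9%. Of the 12 others, 4 had one (33.3%, 13.8% to 60.9%), among them Foxa1, Foxa3 and Foxj3, where the share over all such genes was 33.2%. At Foxj3 the peak lay downstream of the 5′ end that was scored, in sequence with 71.9% G and C in the proximal and 73.3% in the distal list, so that the value at the 5′ end does not describe the accessible stretch. The interval of the CpG-rich Fox genes did not reach the share over all CpG-rich genes, and this difference has no test.

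The 9 CpG-rich members without a promoter peak were Foxb1, Foxb2, Foxd3, Foxe1, Foxf2, Foxl1, Foxl2, Foxn4 and Foxr1. With a stricter ratio of at least 0.75, 19 of 23 Fox genes had a promoter peak (82.6%, 62.9% to 93.0%), against 92.2% of all genes, which that interval includes, and Foxd3, Foxf2, Foxl1 and Foxl2 were the 4 without. Foxf2, with a ratio of 0.856 and 70.0% G and C, was the richest member without a peak at its start. Its neighbour in the same cluster, Foxc1, had a ratio of 0.934 and 65.5% G and C and carried a promoter peak in both lists. By role, 9 of 10 genes listed as widely expressed were CpG-rich, 10 of 14 under skeleton, limb or mesenchyme and 10 of 17 in the outside group. All 3 groups lay above the share over all genes, 45.7%.

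**Figure D2:**
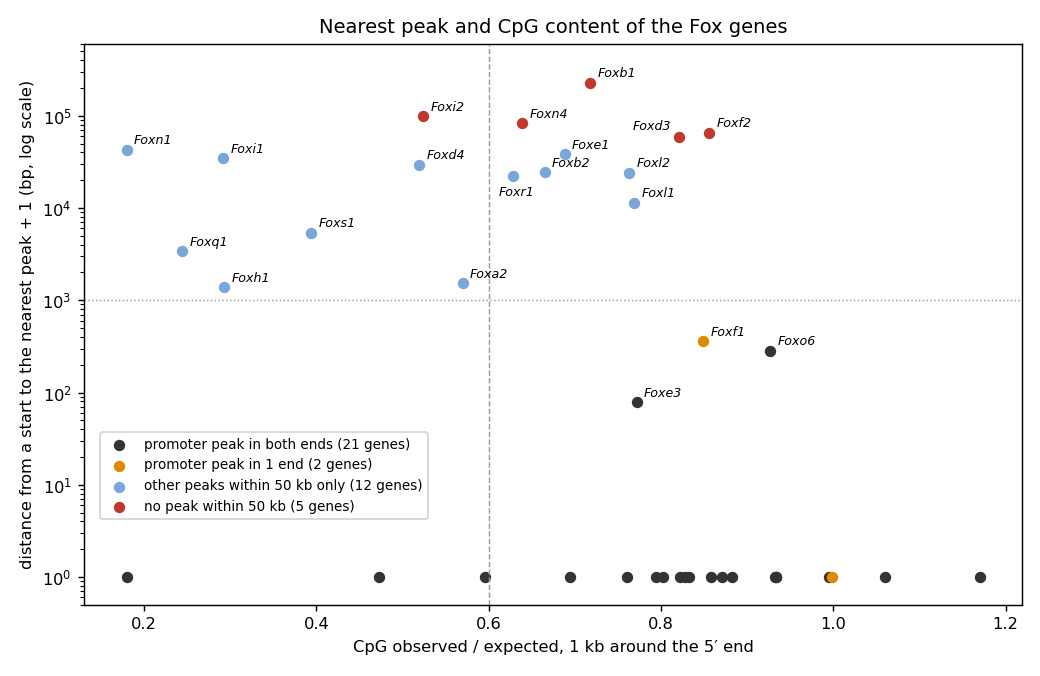
Distance from a gene's start to the nearest peak of either list (bp plus 1, log scale) against the ratio of observed to expected CpG in the 1 kb around its 5′ end, 1 point for each of 40 Fox genes, coloured by class. The dashed line marks a ratio of 0.6 and the dotted line 1 kb. The points on the lowest line have a peak over a start, and the red points right of the dashed line (Foxb1, Foxd3, Foxf2 and Foxn4) are CpG-rich with no peak within 50 kb.

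Some members lie in clusters and share the peaks between them. Foxf1, Foxc2 and Foxl1 lie in a row on chromosome 8, with 28026 bp between the first pair and 9044 bp between the second, and the same 4 regions were counted at all of them. The widths at Foxc2 were 424 bp (proximal) and 511 bp (distal) for the peak over the start, 359 and 340 bp for a peak 2485 and 2497 bp upstream, and 841 and 861 bp for a peak at Mthfsd. Foxc2, known from the axial skeleton and lymphatic vessels, thus had its own promoter peak in both ends, while Foxl1, known from gut mesenchyme, had none of its own and lay 11553 and 11441 bp from the Foxc2 peak.

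Foxf1 (chr8:121084386-121088144), a factor of lung and gut mesenchyme, had a promoter peak in the distal list alone. This peak, chr8:121083604-121084029, was 426 bp wide with 74.2% G and C, ended 357 bp upstream of the Foxf1 start and lay also within 1 kb of the start of the noncoding RNA Fendrr, which is transcribed the other way. The nearest proximal peak was 23758 bp away. Its stretch rich in CG pairs is the first sequence above.

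On chromosome 13, Foxq1, known from the hair shaft, Foxf2 and Foxc1 follow each other with 64839 and 175229 bp between them. Foxq1 had 1 shared peak in its exon, 634 and 453 bp wide and 3406 and 3568 bp from its start, which lay at the start of A530084C06Rik. Foxf2, between them, had none, and Foxc1 had 5. Foxd2 and Foxe3, 16273 bp apart on chromosome 4, shared 3 regions, each called in both lists. They were the peak at Foxd2 of 1207 and 1129 bp, the peak at Foxe3 of 967 and 945 bp, and a peak of 345 and 343 bp upstream of both. In all, 7 of the 132 regions at Fox genes (merged from overlapping peaks of the lists) were counted at more than 1 Fox gene.

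In total the Fox genes had 117 proximal and 118 distal peaks, each counted once, in 132 merged regions, of which 103 held a peak of both ends. The median was 3 regions per Fox gene and 3 per gene over all genes, although the Fox genes are shorter (median 5064 bp against 17629 bp). Per 100 kb of gene and flanks the medians were 2.67 and 2.07. Of the proximal peaks 30 and of the distal peaks 29 were promoter peaks of a Fox gene. Of the other 87 and 89, 34 and 35 lay within 1 kb of the start of another coding gene and 40 and 44 lay more than 3 kb from the start of any other gene. The genes with the most regions were Foxp4 with 10, Foxk1 with 9, and Foxh1 and Foxj2 with 7 each, followed by Foxa3, Foxn3 and Foxp1 with 6.

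Peaks called in 1 end only were present at 20 of 41 Fox genes (48.8%, 34.3% to 63.5%), against 44.3% of all genes. They numbered 29 of the 235 peaks (12.3%, 8.73% to 17.2%), 14 proximal and 15 distal, against 15.6% of all peaks. Only 3 of the 29 lay at a start of a Fox gene, while 7 lay at the start of another coding gene, 2 at a noncoding start, 5 inside a Fox gene away from its starts and 12 elsewhere. They were narrower than the shared peaks at the same genes, with medians of 637.5 against 736 bp in the proximal and 518 against 769 bp in the distal list, as were single-end peaks in general (medians of 510 and 497 bp over the lists).

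Single-end peaks of the proximal list alone were found at 8 genes (Foxa3, Foxd4, Foxe1, Foxj2, Foxn3, Foxp1, Foxp2 and Foxr1), of the distal list alone at 10 (Foxc2, Foxd1, Foxf1, Foxi1, Foxl1, Foxm1, Foxn1, Foxo1, Foxp4 and Foxs1), of which Foxc2, Foxf1 and Foxl1 count the same peak, and of both at Foxk1 and Foxo3. At 16 genes every peak was shared. By role, 6 of 10 widely expressed genes, 9 of 14 in the skeleton, limb or mesenchyme list and 5 of 17 others had one. The share over all genes was 44.3%. A longer gene has a larger window, and the role groups were not matched for gene length.

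Among the paralogues Foxp1, Foxp2 and Foxp4, which bind DNA as dimers with one another, each gene had single-end peaks of 1 list only. This was the usual case in the family, where 8 genes had proximal ones only, 10 distal ones only and 2 both. Foxp4 (chr17:47867133-47924645) had 10 distal and 6 proximal peaks, and its 4 single-end peaks were all distal. They were 807 bp at the start of Mdfi, 518 bp downstream of the gene, 408 bp in an intron and 660 bp at 49391 bp upstream. The first and the last began 528 and 1108 bp from a proximal peak, whereas the other 2 were 20579 and 30689 bp away from any. The last reached past the edge of the 50 kb window, and the proximal peak nearest to it lay outside and was not counted. The promoter peak of Foxp4 was alike in both ends, 1317 and 1243 bp.

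Foxp2 (chr6:14901349-15441977) showed the converse, with 5 proximal and 3 distal peaks. It had 2 promoter peaks and 1 intronic peak shared by the ends, and 2 intronic peaks in the proximal list alone, chr6:15321331-15322047 and chr6:15347653-15348199, of 717 and 547 bp. They lay 203613 and 229935 bp from the nearest distal peak. Both hold the forkhead core once, shown in capitals with 40 bases on each side (plus strand).
Foxp2 intron, proximal list, chr6:15321585-15321671: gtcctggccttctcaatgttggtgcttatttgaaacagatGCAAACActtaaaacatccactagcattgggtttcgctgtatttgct
Foxp2 intron, proximal list, chr6:15347835-15347921: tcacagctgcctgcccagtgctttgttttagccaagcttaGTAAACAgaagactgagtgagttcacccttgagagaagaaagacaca
The shared intronic peak of Foxp2, of 743 and 615 bp, also holds it, on the other strand.
Foxp2 intron, both lists, chr6:15117241-15117327: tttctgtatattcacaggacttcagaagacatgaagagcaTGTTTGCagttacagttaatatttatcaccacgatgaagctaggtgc

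Foxp1 (chr6:98925338-99522721) had 6 proximal and 5 distal peaks. A peak over starts near its 5′ end was called in both lists, at 780 bp in the proximal and 1266 bp in the distal. A further peak of 647 bp, chr6:99027857-99028503, lay over an internal start in the proximal list alone, 8160 bp from the nearest distal peak, and its CpG-rich upstream part is the third sequence above. Foxp1 had 22 annotated starts in a gene of 597384 bp.

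**Figure D3:**
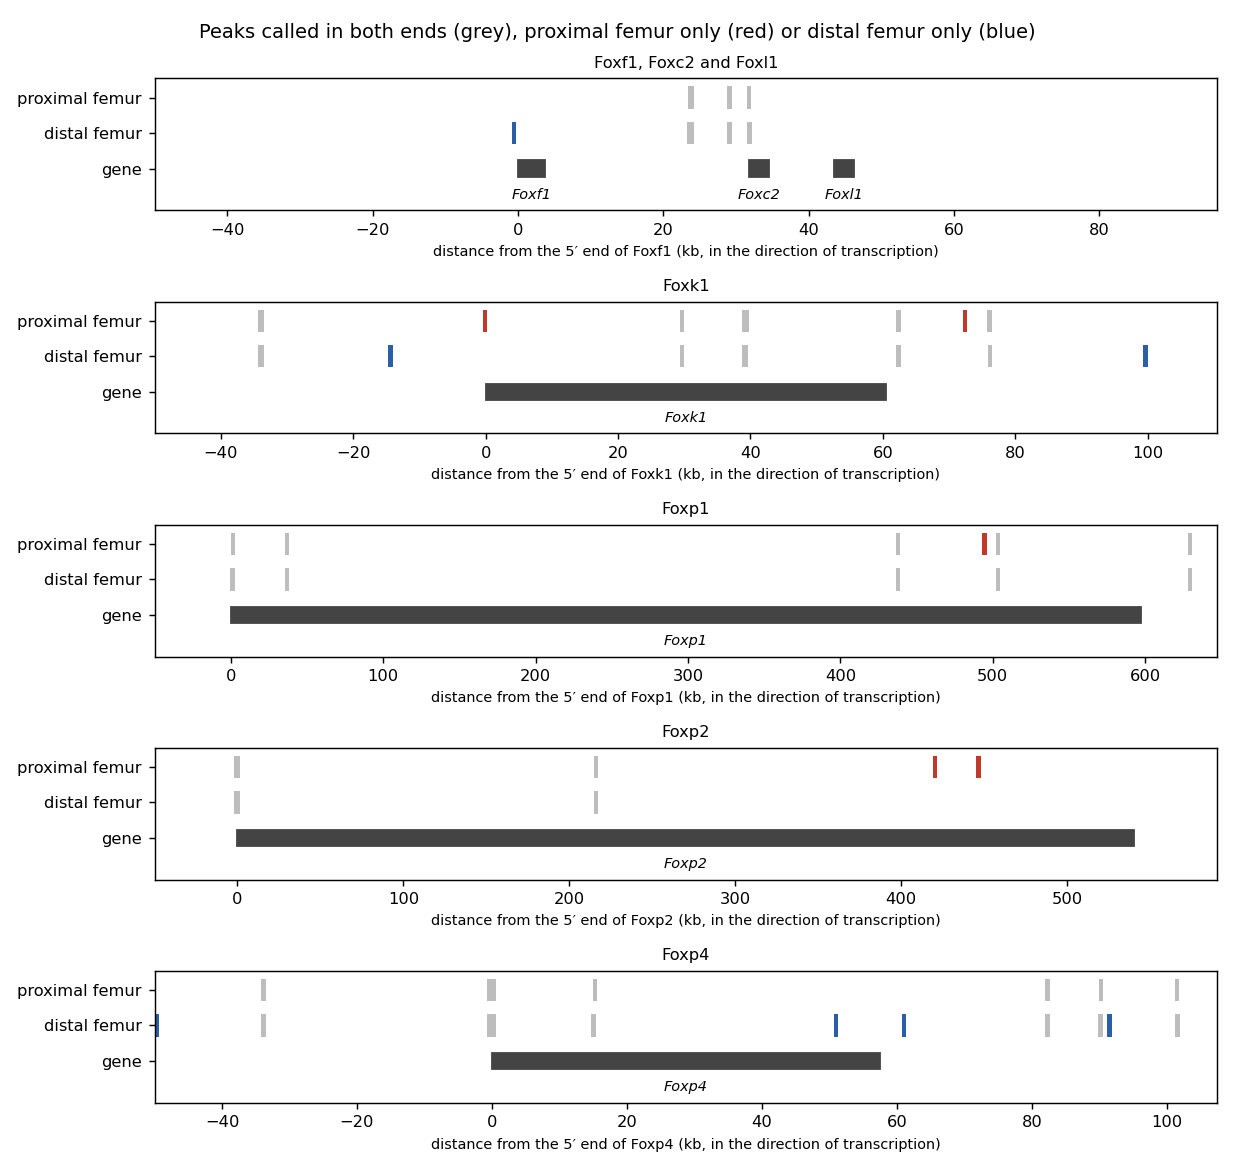
Peaks of the proximal and distal lists (upper and lower marks) along 5 loci, by distance in kb from the 5′ end of the first named gene, in the direction of its transcription, with genes as dark boxes. Peaks called in both ends are grey, in the proximal end only red and in the distal end only blue, and narrow peaks are drawn at a minimum width for visibility. Foxf1 has a blue mark at its start and Foxk1 a red one, and the coloured marks are all red at Foxp2 and all blue at Foxp4.

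Foxk1 (chr5:142401497-142462011) had 7 peaks in each list in 9 regions, of which 5 were shared. The peak over its start, chr5:142401054-142401709, of 656 bp, was in the proximal list alone, 13544 bp from the nearest distal peak, and it is the peak with the second sequence above. The proximal list also had a peak of 375 bp at a start of Ap5z1. In the distal list alone were a peak of 749 bp that began 13988 bp upstream and a peak of 367 bp downstream of the gene. The shared regions comprised 2 intronic peaks, 539 and 545 bp and 1063 and 995 bp wide, so the gene was marked in both ends although its start was not.

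At the remaining genes the single-end peaks were 1 or 2 each. Foxo3 had a distal one of 690 bp in an intron and a proximal one of 745 bp at a noncoding start 31383 bp upstream. Foxa3 had 2 proximal ones, of 578 bp at Irf2bp1 and 448 bp downstream of the gene, which lay 398 and 874 bp from a distal peak. Foxd4 had 2 proximal ones, of 661 and 628 bp, and Foxn1 2 distal ones, of 445 and 600 bp.

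Foxn3 had 1 proximal peak of 681 bp inside the gene, 60815 bp from the nearest distal peak. Foxe1 and Foxr1 each had 1 proximal peak, of 488 and 965 bp, only 209 and 535 bp from a distal peak, and Foxj2 had 1 of 321 bp. Foxd1, Foxs1, Foxo1, Foxm1 and Foxi1 each had 1 distal peak, of 799, 585, 304, 506 and 459 bp. Of the 29 peaks, 24 lay more than 1 kb from every peak of the other list, and the 5 that did not were those named at Foxa3, Foxe1 and Foxr1 and the one at Mdfi near Foxp4.

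The forkhead letters GTAAACA and GCAAACA were searched on both strands of the peaks at Fox genes, and the AP-1 letters TGANTCA for comparison. No sequence of 7 bases fits both. In the 200 bp around the centre, 8 of 132 merged regions at Fox genes held the forkhead letters (6.06%, 3.1% to 11.5%), against 5.90% of all 32388 merged regions. The AP-1 letters, the site of Fos and Jun proteins, were in 16 of 132 (12.1%, 7.6% to 18.8%), against 23.9%. They were in 1 of 31 regions at Fox promoters (3.23%) and in 15 of 101 others (14.9%, 9.21% to 23.1%). The share over all regions was not split in this way, so these values have no background of their own. Nor were the regions matched for their share at promoters or for G and C content. The interval over the 132 regions did not reach the share over all regions, and no test was made of the difference.

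Over whole peaks, the forkhead letters were in 8 of 29 single-end peaks at Fox genes (27.6%, 14.7% to 45.7%), against 17.2% of all single-end peaks, and in 32 of 206 shared peaks (interval 11.2% to 21.1%), against 18.8% of all shared peaks. By end they were in 5 of 14 proximal and 3 of 15 distal single-end peaks. The intervals included the share over all peaks of the same kind. Single-end peaks at Fox genes had a median of 55.2% G and C and shared ones 59.2%, against 48.0% and 54.1% over all peaks. Besides both Foxp2 peaks, the single-end peaks with the letters lay downstream of Foxa3 (2 matches), Foxj2, Foxk1 and Foxm1, in an intron of Foxo3 and in Foxn3, where the peak overlaps an exon. The matches at Foxa3, Foxo3 and Foxn3 are shown in capitals as examples outside annotated exons.
Foxa3 downstream, proximal list, chr7:19010647-19010733: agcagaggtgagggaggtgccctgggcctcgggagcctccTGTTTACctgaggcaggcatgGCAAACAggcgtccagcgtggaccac
Foxo3 intron, distal list, chr10:42225025-42225111: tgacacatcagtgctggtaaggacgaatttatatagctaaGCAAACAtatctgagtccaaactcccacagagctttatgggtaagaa
Foxn3, proximal list, chr12:99454495-99454581: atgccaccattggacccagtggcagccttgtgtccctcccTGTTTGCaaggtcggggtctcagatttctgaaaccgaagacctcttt
Of the 33 shared regions at Fox genes more than 3 kb from every annotated start, 6 held the letters (18.2%, 8.61% to 34.4%), at Foxp4 (2 regions), Foxn2, Foxa2, Foxk1 and Foxp2. Those at Foxa2, the farthest upstream of its 4 peaks, and at Foxp4, 33469 bp upstream, are shown as examples outside the single-end peaks.
Foxa2 upstream, both lists, chr2:148082414-148082500: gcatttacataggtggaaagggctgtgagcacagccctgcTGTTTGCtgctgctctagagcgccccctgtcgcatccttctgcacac
Foxp4 upstream, both lists, chr17:47958552-47958638: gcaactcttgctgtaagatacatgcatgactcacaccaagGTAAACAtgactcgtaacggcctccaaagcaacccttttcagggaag
A match to these letters is not evidence of binding, and the letters were read from the C57BL/6J reference and not from FVB DNA.

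At the 22 genes with a promoter peak in both lists the bases covered by promoter peaks were compared between the ends. They were summed over all promoter peaks of a gene, single-end ones included, and describe peak extent and not signal. The promoter peaks covered more bases in the proximal list at 16 of 22 genes (72.7%, 51.8% to 86.8%), against 54.1% of all genes with promoter peaks in both lists. The interval included that share. The median ratio of proximal to distal bases was 1.05 for the Fox genes and 1.01 for all. The largest ratios were 1.9 at Foxi3 (1206 and 636 bp), 1.57 at Foxo1 (1448 and 925 bp) and 1.26 at Foxc1 (1190 and 945 bp). The smallest were 0.792 at Foxk2 (688 and 869 bp) and 0.83 at Foxc2 (424 and 511 bp). At Foxp1 the proximal sum of 1427 bp, against 1266 bp, included the single-end peak of 647 bp. Its promoter peak present in both lists covered 780 and 1266 bp, so that peak alone was narrower in the proximal list. The median width of the peaks at Fox promoters was 796 bp (proximal) and 802 bp (distal), against 928 and 903 bp at coding promoters in general. These medians rest on 30 proximal and 29 distal peaks, with 4 in each list from Foxn3, and the difference was not tested.

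**Figure D4:**
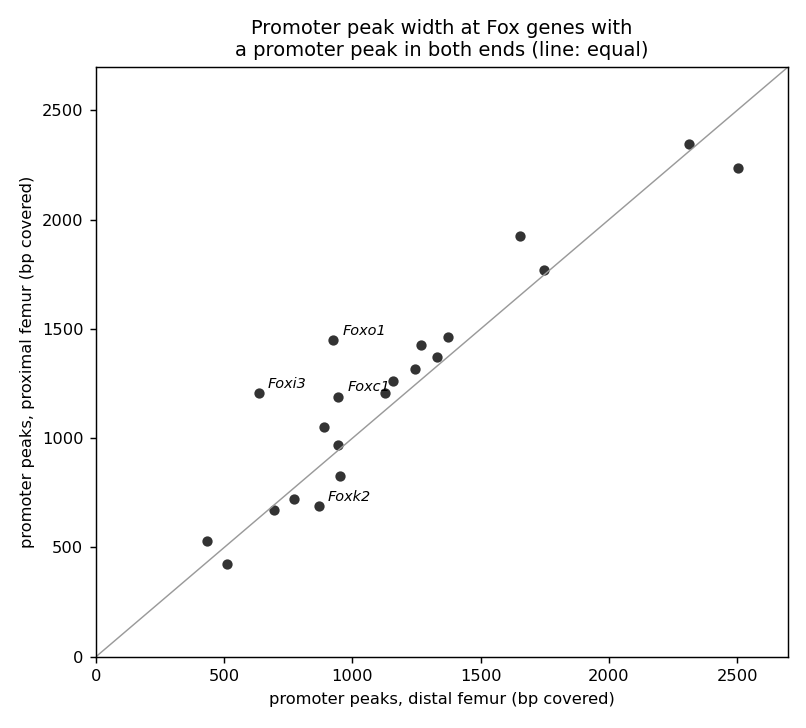
Bases covered by promoter peaks in the proximal (vertical axis, bp) and distal (horizontal axis, bp) femur list, summed per gene with single-end ones included. Each point is 1 of 21 Fox genes with promoter peaks in both lists. The grey line marks equal values, and 15 points lie above it, with Foxi3 and Foxo1 farthest above and Foxk2 among those under it.

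Among developmental transcription factor families the Fox genes were set beside the Sox genes, which include the master factor of cartilage Sox9, and the Hox genes, which pattern the limb. A promoter peak in both lists was present at 22 of 41 Fox genes (53.7%), 7 of 18 Sox genes (38.9%, 20.3% to 61.4%) and 5 of 39 Hox genes (12.8%, 5.6% to 26.7%). Other peaks without a promoter peak were present at 12 of 41 Fox, 9 of 18 Sox and 21 of 39 Hox genes, and no peak within 50 kb at 5, 1 and 9 of them. Over all genes, 55.0% had a promoter peak in both lists, 27.2% other peaks only and 13.6% no peak. Single-end peaks lay near 48.8% of Fox, 66.7% of Sox and 56.4% of Hox genes, against 44.3% of all genes. For the Hox genes those of the distal list were near 22 genes and those of the proximal list near 11, where the Fox genes had 12 and 10 and the Sox genes 5 and 10. Over all genes the shares were 28.1% for the distal and 24.6% for the proximal list. The Hox genes lie side by side in 4 clusters and share their peaks, so their counts are fewer observations than genes, and no test was made between the families.

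**Figure D5:**
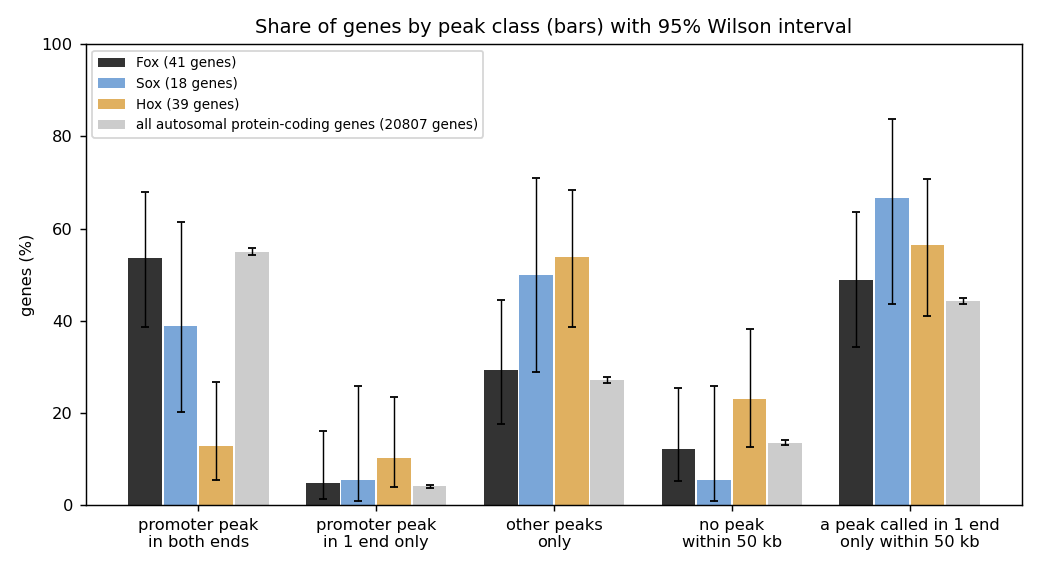
Percent of genes (vertical axis) with a promoter peak in both ends, with one in 1 end, with other peaks only, with no peak within 50 kb and with a single-end peak within 50 kb, for Fox, Sox, Hox and all autosomal protein-coding genes. Bars are shares and lines 95% Wilson intervals, which cover counting error only. The dark Fox bars stand near the light grey bars of all genes in every class, and the Hox bar is lowest for promoter peaks in both ends, at 12.8%.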

How the data were processed

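ATAC-seq peaks of proximal and distal E15.5 femoral growth plates were used. Per the labels and methods, the authors aligned the reads to mm10 with Bowtie2 (2.2.8 in the processing notes), removed duplicates, called peaks with MACS2 (2.1.1 in these notes) and kept peaks reproducible between 2 biological replicates at an IDR under 0.05. The lists deposited by the authors hold chromosome, start and end, so values are positions and widths, with no score. Starts were read as counted from 0, and 0 peaks passed the end of a chromosome of GRCm38.p6. Genes and starts were those of GENCODE release 21. Promoter peaks had an edge within 1 kb of a start, other peaks lay inside or within 50 kb, and shared peaks overlapped by at least 1 bp. Shares were set beside all 20807 genes with 95% Wilson intervals. Python 3.11.15, NumPy 2.4.6, SciPy 1.17.1 and pysam 0.24.0 were used. On simulated peaks, 200 of 200 planted genes were found. 1 further item is counted in the totals and not reported here. The other members were named, with full values for those with single-end peaks, the most peaks or a place in a cluster. Members, lists and the comparisons were chosen with earlier results of these data known. The alternatives to these settings are given in the closing section.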

Additional observations from a re-analysis of the deposited data

How the results depend on the processing

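The counts and shares were recomputed under 32 alternative settings. Of these, 26 left the value within the set range of 1.5 times or its counting interval, and 6 moved it. The labels record the size of a change alone and had no rule for a reversal, and they do not follow which genes make up a count. All 6 concern the size of the window or of the stretch searched. With 20 kb in place of 50 kb, 10 Fox genes had no peak (21.4% of all genes), 11 had a single-end peak (29.1% of all genes), and 16 single-end peaks were counted. With 100 kb, 1 gene had no peak (Foxb1, against 8.75% of all genes) and 46 single-end peaks were counted. The number of single-end peaks near all genes was not computed for these windows. With whole peaks in place of 200 bp, 18.2% of regions held the forkhead letters. The share over all regions was computed for the 200 bp search alone, so this value has no background of its own. Extending the promoter limit to 3 kb added Foxa2 and Foxh1 (24 genes), where the share over all genes was 57.3%. Keeping only wide peaks left 15 genes with promoter peaks in both lists. With the stricter CpG ratio the interval of the Fox genes included the share over all genes. With the CpG window of 2 kb it did not (71.0%, 53.4% to 83.9%, against 90.5%). Both of these CpG settings were added after the data had been seen. So were the 200 bp search in single-end peaks, the limit of 2 kb and the alternatives for Sox and Hox genes.

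No paired analysis was possible because both replicates of an end stand together in its peak list, and for the same reason none was left out in turn. The reads of single replicates were not analysed here. Which peaks would differ with more reads was not tested, since depth is not in the lists.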
